A study of Homo sapiens with 9 samples.

Results

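The comparison described here sets the A8ko cells against the Control cells of a CRISPR editing study in CAL27, an established cell line of squamous carcinoma origin from the human tongue. It covers 5 of the 9 samples in the series, which are labelled as 3 Control samples and 2 A8ko samples. The series is about an enhancer in squamous carcinoma of the head and neck. The remaining samples belong to 2 further knockout groups, A2ko and C9ko. All groups were grown in DMEM with serum and had no treatment, and polyA RNA was sequenced from dUTP libraries made from 2 ug of RNA.

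The labels give neither the edited sequence of A8ko nor the guide, and they do not say whether the cells are a clone or a pool. They do not state how the Control cells were handled beside the editing label, and they do not say whether the Control samples came from separate cultures. The level of a targeted gene could therefore not be given for any sample. The 2 A8ko files did not differ at any of the 78894 gene identifiers, and both headers name the column A8B. They were counted as 1 library, so the comparison rests on 4 of the 7 distinct libraries in the series. With 1 A8ko library the A8ko values have no replicate spread, no p-value is given, and every difference below describes that library against 3 Control libraries.

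CAL27 cells keep features of stratified squamous epithelium, the tissue that lines the mouth. Its basal layer makes KRT5 and KRT14, and cells that leave the basal layer switch to suprabasal keratins and then make the proteins of the cornified envelope, a crosslinked shell under the cell membrane. In the mucosa of the mouth the suprabasal pair is KRT4 and KRT13. Keratinocytes also release cytokines and chemokines. Many of those genes are bound at their promoters by NF-kB, a dimer held inactive in the cytoplasm by IkB proteins, and by AP-1, a dimer of FOS and JUN family members.

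The promoters of 5 genes are shown because the groups described below turn on these genes: 3 from the cytokine side, which were higher in A8ko, and 2 from the squamous side, which were lower. Each line gives the 250 bases before the start of the gene in RefSeq on GRCh38.p14, 5′ to 3′ on the gene's own strand. GENCODE, from which the gene positions in the text come, starts some genes further upstream, so that the IL6 and KRT4 windows lie inside the GENCODE gene and the CXCL8 and SPRR1B windows reach into it. Capitals mark matches to TGANTCA, the AP-1 motif, and to GGNNNTTCC or its reverse complement GGAANNNCC, a short form of the NF-kB motif. The windows are chr5:132073539-132073788 on the plus strand for CSF2, chr7:22726950-22727199 on the plus strand for IL6 and chr4:73740319-73740568 on the plus strand for CXCL8. For KRT4 the window is chr12:52814117-52814366 on the minus strand, and for SPRR1B it is chr1:153030953-153031202 on the plus strand.
CSF2: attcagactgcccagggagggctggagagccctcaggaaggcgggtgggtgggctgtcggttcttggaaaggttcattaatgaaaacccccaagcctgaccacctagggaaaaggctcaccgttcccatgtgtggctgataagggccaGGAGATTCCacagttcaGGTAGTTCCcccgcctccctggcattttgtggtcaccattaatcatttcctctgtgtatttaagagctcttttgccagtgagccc
IL6: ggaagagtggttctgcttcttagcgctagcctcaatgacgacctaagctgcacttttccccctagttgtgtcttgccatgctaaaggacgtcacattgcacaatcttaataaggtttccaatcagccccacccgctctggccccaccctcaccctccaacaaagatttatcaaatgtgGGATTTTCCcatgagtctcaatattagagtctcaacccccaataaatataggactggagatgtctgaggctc
CXCL8: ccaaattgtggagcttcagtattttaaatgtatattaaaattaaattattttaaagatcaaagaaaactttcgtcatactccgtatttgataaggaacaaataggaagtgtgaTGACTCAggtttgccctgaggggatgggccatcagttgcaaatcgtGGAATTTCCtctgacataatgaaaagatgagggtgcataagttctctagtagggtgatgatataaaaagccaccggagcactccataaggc
KRT4: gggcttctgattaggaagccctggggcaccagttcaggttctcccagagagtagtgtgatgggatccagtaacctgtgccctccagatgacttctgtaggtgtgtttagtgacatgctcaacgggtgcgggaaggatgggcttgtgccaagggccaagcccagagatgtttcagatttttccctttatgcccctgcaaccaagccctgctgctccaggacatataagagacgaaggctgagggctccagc
SPRR1B: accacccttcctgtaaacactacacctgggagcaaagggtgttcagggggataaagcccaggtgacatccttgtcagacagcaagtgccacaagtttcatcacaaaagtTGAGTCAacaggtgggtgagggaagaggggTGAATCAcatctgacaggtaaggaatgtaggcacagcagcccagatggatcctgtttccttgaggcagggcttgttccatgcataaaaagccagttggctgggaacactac
The CSF2 window held 2 NF-kB-like matches, 102 and 85 bases before the start, and the IL6 window held 1, at 72 bases. The CXCL8 window held 1 AP-1 match at 137 bases and 1 NF-kB-like match at 91 bases. The SPRR1B window held 2 AP-1 matches, at 141 and 111 bases, and the KRT4 window held no match to either motif. No match of one motif overlapped a match of the other in these 5 windows. The 5 genes were picked for display, so their matches do not describe the higher or lower genes at large. By the counting rule given below, NF-kB-like matches were in 21.4% of windows of higher genes and 19.6% of lower genes. The share was 19.7% in windows of all compared genes. For the AP-1 motif these shares were 13.3%, 8.75% and 4.73%.

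Values are TPM, which is a share of each library scaled for gene length, so the depth of the libraries is unknown. Differences are A8ko minus the Control mean on the log2(TPM + 1) scale, which makes differences of low genes look smaller than they are. The 17100 identifiers with at least 1 TPM in at least 2 distinct libraries were compared. A gene was counted as higher or lower when the A8ko value was above or below all 3 Control libraries and differed from the Control mean by 1 log2 unit or more. By this rule 809 genes were counted, which is 4.73% of those compared. Of these, 350 were higher (2.05%) and 459 were lower (2.68%). Each Control library held against the other 2 gave 105, 113 and 110 genes, which are 0.614%, 0.661% and 0.643%. Pearson's r over genes was 0.991 for each pair of Control libraries and 0.970 to 0.971 between A8ko and each Control library. Genes at or above 1 TPM numbered 15658 to 15832 in Control and 15556 in A8ko. Mitochondrially encoded RNA took 23.1% to 26.9% of the TPM in Control and 20.6% in A8ko, and TPM rescaled without those genes gave 354 higher and 614 lower genes.

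Among the compared genes, those far from Control were more often lower than higher. Differences of at least 2 log2 units numbered 78 lower and 39 higher, and those of at least 3 numbered 23 lower and 5 higher. The filter treats the directions unequally. A gene expressed in Control and absent in A8ko passes it, and a gene expressed in the A8ko library alone cannot. Without the filter, all counted genes numbered 372 higher and 462 lower. How far the filter sets the excess of lower genes among the larger differences was not tested. Of the 459 lower genes, 37 were listed at 0 in A8ko, and such genes are given below by their TPM with no difference. Protein-coding genes made up 252 of the 350 higher and 340 of the 459 lower genes, and 72.5% of all compared. Long noncoding genes made up 14.6% of the higher and 9.59% of the lower genes, against 13.2%. At 5 TPM or more in the higher of A8ko and Control, the counted genes were balanced, with 257 higher and 239 lower. The median difference over all compared genes was 0.09.

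**Figure D1:**
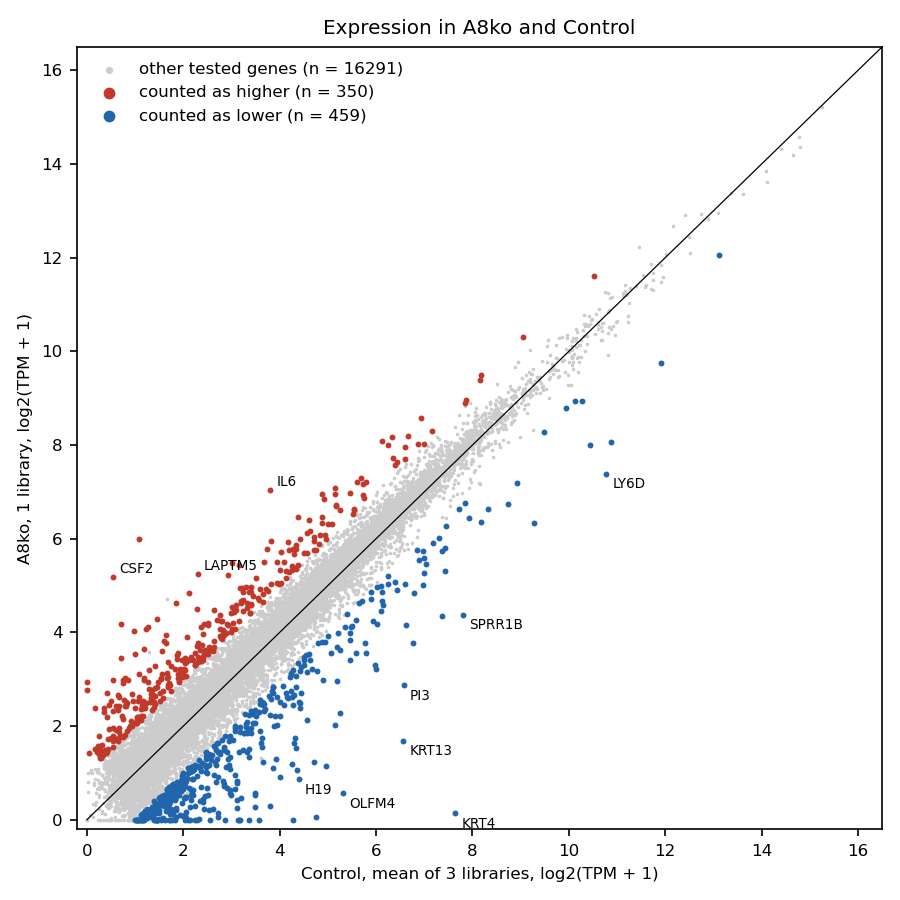
Each point is a compared gene, with the mean of 3 Control libraries on the horizontal axis and the A8ko library on the vertical axis, both as log2(TPM + 1). Red points are the 350 genes counted as higher and blue points the 459 counted as lower. KRT4 lies far to the right near the bottom, and CSF2 and IL6 lie high above the diagonal.

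The labelled cell type was checked against marker genes. Of 7 squamous epithelial markers, all were at 100 TPM or more in all 4 libraries. Their summed level was 14086 to 15223 TPM in Control and 6490 in A8ko, and KRT5, KRT14 and KRT17 were the members counted as lower. TP63, which encodes the master regulator p63 of squamous cells, was at 271 to 296 TPM in Control and 265 in A8ko. EPCAM was at 236 to 258 TPM in Control and 307 in A8ko, and CDH1, which encodes E-cadherin, was at 100.3 to 106 and 141. Of 7 leukocyte markers, 5 were under 1 TPM in all 4 libraries, and PTPRC, which encodes the common leukocyte antigen CD45, did not exceed 0.0232 TPM. The leukocyte sum was 42.6 to 50.7 TPM in Control and 83.5 in A8ko and was carried by CD68, at 27.8 to 32.2 TPM in Control and 66.3 in A8ko, and by CD14, at 14.2 to 17.9 and 16.3. Of 6 endothelial markers, 5 were under 1 TPM throughout, and CDH5 was at 3.21 to 4.27 TPM in Control and 8.15 in A8ko. Of 8 fibroblast markers, 5 were under 1 TPM throughout and COL3A1 was listed at 0, with sums of 10.8 to 12.3 TPM in Control and 7.43 in A8ko. In bulk RNA, fewer cells that express a gene and less RNA of that gene per cell cannot be told apart.

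Among the 41 gene lists, the colony-stimulating factors and the IL-6 family had the highest median difference. The lists were chosen with earlier results of these data known, so this rank is a description only. Every list count below stands beside shares over all compared genes of 2.05% higher and 2.68% lower. A count near these shares is not read as a result about the list. CSF2, IL6, LIF and CSF1 were counted as higher, 4 of 8 compared members, none was lower, and the list median was 1.21 (1.83 among members with a mean of at least 5 TPM). CSF2 encodes GM-CSF, which drives the growth and maturation of granulocytes and macrophages. It was at 0.203, 0.530 and 0.679 TPM in the Control libraries and at 35.3 TPM in A8ko, a log2 difference of 4.64. It was under 1 TPM in every Control library and well expressed in A8ko. IL6 (chromosome 7, 22725884 to 22732002, GRCh38) encodes interleukin 6, the inducer of the acute phase response. It was at 12.1, 14.1 and 12.9 TPM in Control and 130.5 TPM in A8ko, a log2 difference of 3.23. The A8ko value stood far above a narrow Control range. LIF, a ligand of the same receptor family as IL-6, was at 10.96 to 12.45 TPM in Control and 44.6 TPM in A8ko, a difference of 1.83. CSF1, the macrophage growth factor, was at 23.7 to 23.9 TPM in Control and 71.1 TPM in A8ko, a difference of 1.54.

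The IL6 locus held further genes among the 15 largest differences. STEAP1B (chromosome 7, 22419444 to 22727613) overlaps IL6 on the other strand in the annotation and was at 0.170, 0.241 and 0.603 TPM in Control and 5.56 in A8ko. Its antisense transcript STEAP1B-AS1 was at 1.35, 1.67 and 2.21 TPM in Control and 18.6 TPM in A8ko. IL6-AS1, which lies on the same strand as STEAP1B and overlaps IL6, was at a mean of 0.760 TPM in Control and 4.36 in A8ko. All of these stood above Control together with IL6. Whether reads were counted by strand is not given in the sources used here. Reads of IL6 therefore cannot be told apart from those of STEAP1B and IL6-AS1. STEAP1B-AS1 (22563337 to 22573996) overlaps STEAP1B but not IL6.

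TNF (chromosome 6, 31575567 to 31578336), the tumour necrosis factor gene, was at 1.38, 1.18 and 1.67 TPM in Control and 16.4 TPM in A8ko, a difference of 2.86. TNFRSF6B, which encodes a soluble decoy receptor of the TNF family, was at 1.12, 0.604 and 0.278 TPM in Control and 9.88 in A8ko, a difference of 2.74. Both genes were low in every Control library. TNFRSF6B lies within a readthrough transcript of RTEL1, so its share of the reads is uncertain. TNFSF10, the gene of the death ligand TRAIL, went the other way and was at 313 to 328 TPM in Control and 98.5 in A8ko, a difference of -1.69. Of 11 compared cytokine and TNF family genes outside the other lists, 3 were higher and 2 lower, with a median of 0.35, which was 0.15 at a pseudocount of 5. IL23A, which encodes a subunit of interleukin 23, had a difference of 1.38, IL24 of 1.02 and the lymphoid growth factor IL7 of -1.16.

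Of 9 interleukin-1 family genes, IL1A and IL1B were higher and none was lower. IL1A was at 31.4 to 36.7 TPM in Control and 135 TPM in A8ko, a difference of 1.95. IL1B was at 94.3 to 107 TPM in Control and 293 TPM in A8ko, a difference of 1.53. Both encode agonists of the same receptor.

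Of 13 chemokine genes, 6 were higher and 1 was lower, with a median of 0.48. The median was 0.72 at a pseudocount of 0.1, 0.25 at a pseudocount of 5 and 1.08 among members with a mean of at least 5 TPM. CXCL11, an interferon-inducible ligand of CXCR3, was at 8.21, 6.99 and 6.27 TPM in Control and 43.4 TPM in A8ko, a difference of 2.45. CXCL10, another ligand of that receptor, was at 11.2 to 13.3 TPM in Control and 28.6 TPM in A8ko, a difference of 1.13. The neutrophil attractants CXCL8, CXCL1 and CXCL2 were also higher. CXCL8 was at 20.4, 19.9 and 21.4 TPM in Control and 62.3 TPM in A8ko, a difference of 1.55. CXCL1 had a difference of 1.45 and CXCL2 of 1.08. CCL20, which attracts cells that carry CCR6, was at 15.7 to 19.4 TPM in Control and 52.8 in A8ko, a difference of 1.57. CCL2, the monocyte attractant, was the lower member, at 118 to 136 TPM in Control and 37.4 TPM in A8ko, a difference of -1.74.

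**Figure D2:**
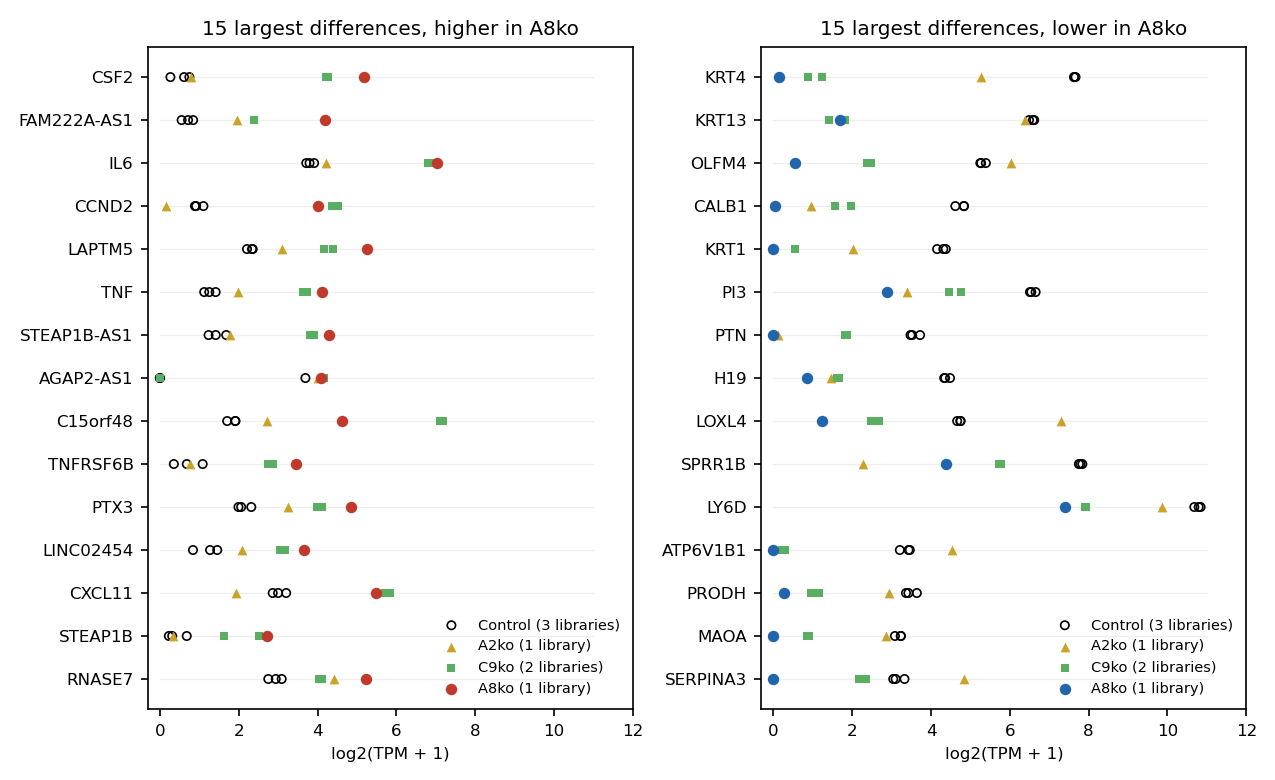
The 30 named genes, 15 per direction, are drawn as log2(TPM + 1) on the horizontal axis, with open circles for the 3 Control libraries, a filled circle for A8ko, a triangle for A2ko and squares for the 2 C9ko libraries. In each row the A8ko point lies outside the Control points, and the Control points of AGAP2-AS1 are spread from 0 to 11.9 TPM.

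The list of NF-kB members, feedback inhibitors and related genes had the same direction as most cytokines: 6 of 22 were higher, none was lower and the median was 0.69. TNFAIP3, which encodes the feedback inhibitor A20, was at 33.2 to 36.1 TPM in Control and 124 TPM in A8ko, a difference of 1.81. ICAM1, an adhesion molecule for leukocytes, was at 22.7 to 23.8 TPM in Control and 82.8 TPM in A8ko, a difference of 1.79. SOD2, the mitochondrial superoxide dismutase, had a difference of 1.36, from 80.0 to 82.4 TPM in Control to 209 TPM in A8ko. ZC3H12A, which encodes an RNase that degrades cytokine mRNA, IRAK2 and NFKBIZ were the other higher members, with differences of 1.11, 1.11 and 1.01.

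The AP-1 family was uneven. Of 23 AP-1 and immediate early genes, 4 were higher and 1 was lower, and the median was 0.10. FOSL1, which encodes the FOS-related protein FRA1, was at 77.3, 72.1 and 74.3 TPM in Control and 256 TPM in A8ko, a difference of 1.77. JUN was at 22.4 to 27.0 TPM in Control and 64.9 TPM in A8ko, a difference of 1.34. FOS was lower, at 141 to 149 TPM in Control and 59.1 TPM in A8ko, a difference of -1.28. The MAP kinase phosphatase DUSP4 was at 3.50 to 4.15 TPM in Control and 21.6 TPM in A8ko, a difference of 2.22, and DUSP5 was at 43.6 to 46.0 TPM in Control and 90.6 in A8ko.

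Of 23 acute phase, complement and antimicrobial genes, 6 were higher and 2 lower, with a median of 0.70. The serum amyloid genes SAA1 and SAA2 are near-identical, so their sum is given: 115 ± 5.80 TPM in Control (SD, n = 3) and 388 TPM in A8ko. SAA4 was at 1.10 to 1.66 TPM in Control and 6.71 in A8ko. RNASE7, an antimicrobial ribonuclease of skin, was at 7.51, 5.73 and 6.67 TPM in Control and 36.5 TPM in A8ko, a difference of 2.30. It overlaps NDRG2 on the other strand. SERPINA1, the gene of alpha-1 antitrypsin, was at 1.51 to 2.51 TPM in Control and 12.99 TPM in A8ko, a difference of 2.21. Its neighbour SERPINA3 (chromosome 14, 94612377 to 94624055), the gene of alpha-1 antichymotrypsin, was the lower one, at 7.59, 7.24 and 9.04 TPM in Control and 0.00177 TPM in A8ko. SLPI, an inhibitor of leukocyte protease, was at 229 to 264 TPM in Control and 85.9 TPM in A8ko, a difference of -1.49. PTX3, a soluble pattern recognition molecule that sits in none of the lists, was at 3.99, 2.98 and 3.17 TPM in Control and 27.6 TPM in A8ko, a difference of 2.71.

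Interferon-stimulated genes were lower or not counted. None of 45 was higher, 11 were lower, and the median was -0.50. IFI27 was at 458 to 543 TPM in Control and 146 TPM in A8ko, a difference of -1.73. MX1, an inhibitor of RNA viruses, was at 78.7 to 90.04 TPM in Control and 32.5 TPM in A8ko, a difference of -1.32. The antiviral genes SAMD9L, SAMD9, CMPK2, RSAD2 and IFI44L had differences of -1.79, -1.38, -1.48, -1.09 and -1.27. IRF9, the DNA-binding subunit of the factor that type I interferon activates, was at 6.25 to 13.4 TPM in Control and 4.003 TPM in A8ko. The members IFI6, XAF1 and TRIM22, had differences of -1.24, -1.45 and -1.42.

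Of 26 antigen presentation genes, 4 were higher and none was lower, with a median of 0.39 (0.21 at a pseudocount of 5), and all 4 were class II genes. HLA-DQB1 was at 2.38 to 3.09 TPM in Control and 10.5 TPM in A8ko, a difference of 1.64. HLA-DPA1 was at 8.24 to 8.54 TPM in Control and 28.0 TPM in A8ko, a difference of 1.62. HLA-DRB1 and HLA-DRB5 share sequence, and their sum was 14.4 ± 0.588 TPM in Control (SD, n = 3) and 35.1 TPM in A8ko. B2M, the light chain of class I, was at 1172 to 1322 TPM in Control and 943 TPM in A8ko and was not counted. LAPTM5, a lysosomal membrane protein best known from blood cells, was at 4.05, 3.62 and 4.11 TPM in Control and 37.0 TPM in A8ko, a difference of 2.95.

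Keratin RNA was lower in A8ko as a whole. The listed type I and type II keratins together took 18271 ± 561 TPM in Control (SD, n = 3) and 7132 TPM in A8ko, a ratio of 0.390. Of 14 basal, simple and stress keratins, 9 were lower and 3 were higher, with a median of -1.13. Of 7 suprabasal keratins, 4 were lower and 1 was higher.

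KRT4, the type II keratin of the oral suprabasal pair, was at 202, 198 and 197 TPM in Control and 0.106 TPM in A8ko, a difference of -7.50, and its gene (chromosome 12, 52806549 to 52814551) lies in the type II keratin cluster. Its type I partner KRT13 (chromosome 17, 41500981 to 41505705) was at 95.0, 88.7 and 97.2 TPM in Control and 2.23 TPM in A8ko, a difference of -4.87. Both partners were abundant in every Control library and near absent in A8ko. KRT1, the suprabasal keratin of skin, was at 16.8, 19.8 and 18.9 TPM in Control and listed at 0 in A8ko. KRT3, at 1.69 to 1.75 TPM in Control, was also listed at 0. KRT80 was the higher member, at 52.5 to 57.4 TPM in Control and 148 TPM in A8ko, a difference of 1.42.

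Among the basal keratins, KRT15 was at 1886, 1803 and 1925 TPM in Control and 266 TPM in A8ko, a difference of -2.81. KRT14 was at 3549, 3796 and 4286 TPM in Control and 867 TPM in A8ko, a difference of -2.16. KRT5, the partner of KRT14, was at 8716, 9147 and 8887 TPM in Control and 4237 TPM in A8ko, a difference of -1.07. Each lay far under its lowest Control library. The stress keratins KRT6A, KRT6B and KRT6C share most of their sequence, and their sum was 1448 ± 36.8 TPM in Control (SD, n = 3) and 278 TPM in A8ko. KRT16, their partner in wounded epithelium, was at 154 to 176 TPM in Control and 19.3 TPM in A8ko, a difference of -3.02. The simple epithelial keratins were uneven. KRT18 and KRT7 were higher, with KRT18 at 220 to 246 TPM in Control and 477 in A8ko and KRT7 at 5.80 to 6.96 and 14.8. KRT19 was lower, at 3.01 to 4.01 TPM in Control and 1.15 in A8ko. KRT8 was at 218 to 251 TPM in Control and 314 in A8ko and was not counted. The third higher member was KRT81, at 0.172 to 0.371 TPM in Control and 1.60 TPM in A8ko.

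Of 26 cornified envelope and late differentiation genes, 11 were lower and 2 higher, with a median of -0.78 (-0.44 at a pseudocount of 5). PI3 (chromosome 20, 45174876 to 45176544), which encodes the elastase inhibitor elafin, was at 92.4, 90.2 and 99.7 TPM in Control and 6.32 TPM in A8ko, a difference of -3.70. SPRR1B (chromosome 1, 153031202 to 153032900) encodes a small proline-rich protein that is crosslinked into the envelope. It was at 221, 215 and 228 TPM in Control and 19.8 TPM in A8ko, a difference of -3.41. Because SPRR1A and SPRR1B are close copies, their sum is given as well: 347 ± 6.91 TPM in Control (SD, n = 3) and 51.0 TPM in A8ko. KRTDAP was at 13.3 to 17.8 TPM in Control and 0.881 TPM in A8ko, a difference of -3.10. IVL, the gene of the envelope scaffold involucrin, was at 1.96 to 2.08 TPM in Control and 0.227 in A8ko, and SBSN, at 2.88 to 3.31 TPM in Control, was listed at 0. The higher members were CNFN, at 1.98 to 2.55 TPM in Control and 7.13 in A8ko, and SPRR3, at 0.430 to 0.978 and 3.43.

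LY6D (chromosome 8, 142784880 to 142786592), a membrane-anchored protein of squamous cells, was at 1832, 1641 and 1771 TPM in Control and 167 TPM in A8ko, a difference of -3.38. OLFM4 (chromosome 13, 53028759 to 53052057), a secreted olfactomedin glycoprotein, was at 41.0, 37.1 and 37.7 TPM in Control and 0.474 TPM in A8ko, a difference of -4.75. The membrane mucin MUC4 was at 4.44 to 6.55 TPM in Control and 0.0485 TPM in A8ko, and MUC16 at 10.6 to 16.9 and 4.96. Of 16 surface mucin, CEACAM and lectin genes, 4 were lower and none was higher, with a median of -0.44. That median was -0.25 at a pseudocount of 5 and -0.008 among members with a mean of at least 5 TPM.

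**Figure D3:**
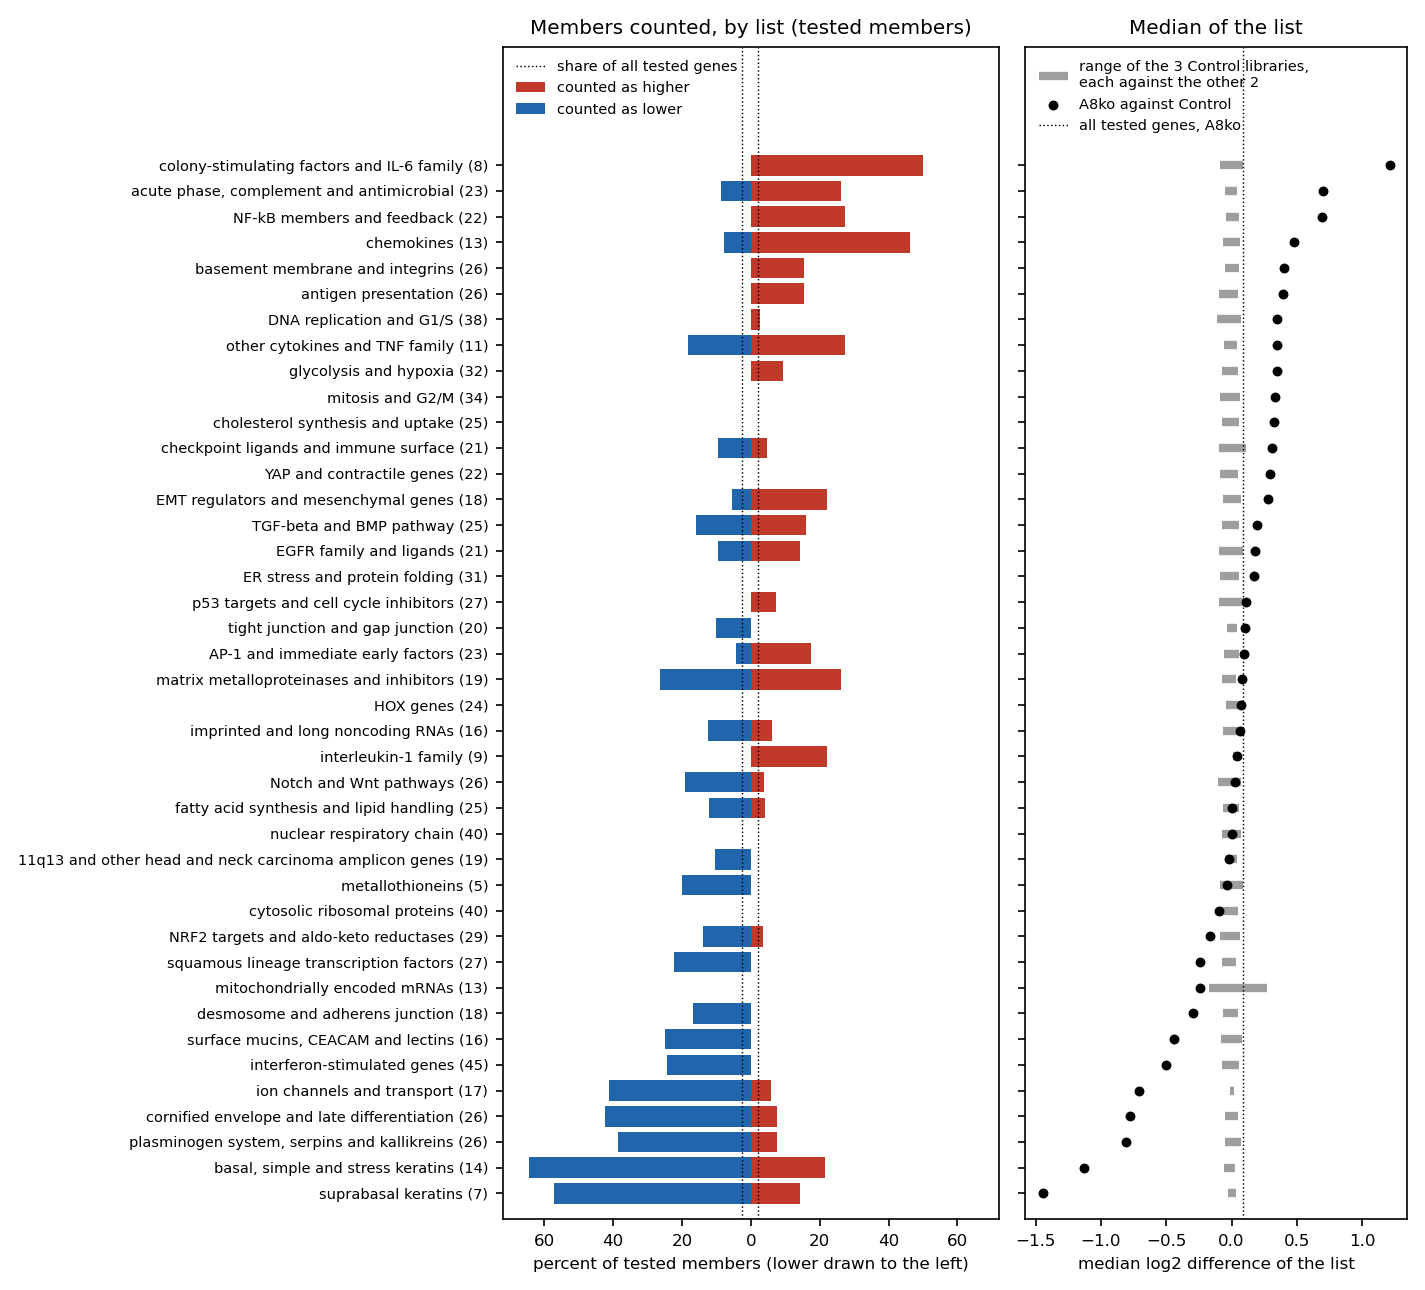
For each of the 41 gene lists, with the number of compared members in brackets, the left panel shows the percent of members counted as higher (right, red) and lower (left, blue), with dotted lines at the share of all compared genes. The right panel shows the list's median log2 difference (black) beside the range of the medians of each Control library against the other 2 (grey). The colony-stimulating factors stand at the top with a median of 1.21, and the keratin lists stand at the bottom. The lists were chosen with earlier results of these data known.

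Of 18 desmosome and adherens junction genes, 3 were lower and none was higher, with a median of -0.30. PKP1, which encodes the desmosomal plaque protein plakophilin 1, was at 159 to 184 TPM in Control and 38.7 TPM in A8ko, a difference of -2.11. DSG3, a desmosomal cadherin, was at 34.7 to 39.0 TPM in Control and 11.3 TPM in A8ko, a difference of -1.62. DSP, the gene of desmoplakin, had a difference of -1.17. None of 20 tight junction and gap junction genes was higher, and their median was 0.10. GJB6, a connexin gene of gap junctions, was at 14.6 to 17.2 TPM in Control and 6.22 TPM in A8ko, a difference of -1.23.

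Of 27 squamous lineage transcription factors, 6 were lower and none was higher, with a median of -0.24 (-0.15 at a pseudocount of 5). SOX2 was at 10.5, 10.1 and 9.87 TPM in Control and 0.483 TPM in A8ko, a difference of -2.91. ZNF750, a regulator of terminal keratinocyte differentiation, was at 14.1, 14.1 and 14.5 TPM in Control and 1.46 TPM in A8ko, a difference of -2.63. BARX2 had a difference of -2.47 and GRHL3, a driver of barrier formation, of -1.22. The epithelial factors ELF3, at 162 to 182 TPM in Control and 54.9 in A8ko, and KLF5, at 113 to 118 and 52.99, had differences of -1.64 and -1.10. TP63 itself had a difference of -0.08.

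Of 26 genes of the plasminogen system, serpins and kallikreins, 10 were lower and 2 higher, with a median of -0.81 (-0.42 at a pseudocount of 5). The kallikreins, serine proteases that cleave desmosomal proteins at the surface of the epithelium, made up several of the lower members. KLK11 was at 17.5 to 19.6 TPM in Control and 1.27 TPM in A8ko, a difference of -3.08. KLK10, KLK7 and KLK8 had differences of -1.84, -1.53 and -1.07, and KLK13, at 0.822 to 1.63 TPM in Control, was listed at 0. SERPINB13, an inhibitor made by squamous cells, was at 94.9 to 103 TPM in Control and 16.8 TPM in A8ko, a difference of -2.47. The higher members were the urokinase PLAU, at 222 to 251 TPM in Control and 496 in A8ko, and its receptor PLAUR, at 17.2 to 19.6 and 50.3.

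Matrix metalloproteinases and their inhibitors were split, with 5 of 19 higher and 5 lower. The collagenase MMP13 was at 62.6, 59.8 and 63.6 TPM in Control and 8.80 TPM in A8ko, a difference of -2.68. MMP7 was at 7.29 to 9.87 TPM in Control and 0.373 TPM in A8ko, a difference of -2.74, and MMP10 and MMP12 were lower as well. The sheddase ADAM8 was at 8.11, 7.63 and 8.10 TPM in Control and 42.5 TPM in A8ko, a difference of 2.28. The inhibitors differed among themselves: TIMP1 and TIMP2 were higher, with differences of 1.57 and 1.52, and TIMP3 was lower, with -1.30.

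Of 18 genes of epithelial to mesenchymal transition, 4 were higher and 1 lower, with a median of 0.28. The median was 0.59 among members with a mean of at least 5 TPM and 0.18 with libraries scaled by the median of ratios. INHBA, which encodes the activin A subunit, was at 13.2, 13.3 and 13.1 TPM in Control and 60.4 TPM in A8ko, a difference of 2.12. FN1, the gene of fibronectin, was at 7.90 to 9.06 TPM in Control and 24.7 in A8ko, a difference of 1.45. CDH2, which encodes N-cadherin, had a difference of 1.21, and LOXL2, a lysyl oxidase, of 1.11. LOXL4 (chromosome 10, 98247690 to 98268250), another lysyl oxidase, was the lower member, at 25.8, 24.4 and 25.95 TPM in Control and 1.35 TPM in A8ko, a difference of -3.49. Of 26 basement membrane and integrin genes, 4 were higher and none lower, with a median of 0.40. ITGA3 was at 123 to 129 TPM in Control and 260.0 in A8ko, and NT5E and ITGB5 had differences of 1.52 and 1.23.

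Of 25 TGF-beta and BMP genes, 4 were higher and 4 lower. The lower ones included 3 genes of the inhibitor of differentiation family, ID1, ID3 and ID2. ID1 was at 435, 378 and 473 TPM in Control and 106 TPM in A8ko, a difference of -2.00. ID3 and ID2 had differences of -1.40 and -1.17. ID genes are direct targets of BMP signalling. The ligand BMP7 was lower, at 10.4 to 12.4 TPM in Control and 1.93 in A8ko, while the ligand BMP4 was higher, at 2.57 to 2.91 and 7.13. PMEPA1, a feedback inhibitor of TGF-beta signalling, had a difference of 1.69, the ligand TGFB2 of 1.12 and CCN1 of 1.22.

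Of 21 EGFR family and growth factor genes, 3 were higher and 2 lower, with a median of 0.18. The receptor tyrosine kinase AXL was at 21.1, 18.9 and 19.4 TPM in Control and 87.9 TPM in A8ko, a difference of 2.10. HBEGF, an EGFR ligand, was at 9.04 to 10.4 TPM in Control and 26.3 in A8ko, and SPRY4, a feedback inhibitor of the pathway, at 0.392 to 0.524 and 3.98. The lower genes were IGFBP3, at 1143 to 1283 TPM in Control and 492 TPM in A8ko, and IGFBP6. Of 26 Notch and Wnt genes, 5 were lower and 1 was higher. The receptor NOTCH3 was at 56.4, 59.0 and 64.8 TPM in Control and 17.9 TPM in A8ko, a difference of -1.69. HES2 and HES4, of the HES repressor family, and the Notch feedback gene NRARP had differences of -2.03, -1.48 and -1.36. WNT5A had a difference of -1.96 and WNT7A of 1.21.

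Cell cycle lists were slightly above all genes. Of 38 DNA replication and G1/S genes, only CCND2 was counted, and the list median was 0.35. CCND2 (chromosome 12, 4273772 to 4305350), which encodes cyclin D2, was at 1.15, 0.851 and 0.891 TPM in Control and 15.2 TPM in A8ko, a difference of 3.05. None of 34 mitosis and G2/M genes was counted, and their median was 0.33. Of 27 p53 target and cell cycle inhibitor genes, BBC3 and PLK3 were higher, with differences of 1.43 and 1.13, and the median was 0.11.

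Of 32 glycolysis and hypoxia genes, 3 were higher and none lower, with a median of 0.35. VEGFA, the angiogenic growth factor, was at 46.4 to 49.4 TPM in Control and 147 TPM in A8ko, a difference of 1.61. P4HA2 and the carbonic anhydrase CA9 had differences of 1.19 and 1.16. Of 25 fatty acid and lipid genes, 3 were lower and 1 was higher. PTGES, the inducible prostaglandin E synthase, was at 104 to 116 TPM in Control and 27.5 TPM in A8ko, a difference of -1.96. FABP5, the epidermal fatty acid binding protein, had a difference of -1.29. Of 29 NRF2 target and aldo-keto reductase genes, 4 were lower, among them ALDH3A1 at -1.57 and GPX2 at -1.49, and 1 was higher, FTL, with a wide Control range of 1195 to 2080 TPM and 3147 TPM in A8ko. The metallothionein MT1X, at 694 to 733 TPM in Control and 308 TPM in A8ko, was the counted member among 5.

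Channels and transporters were often lower. Of 17 genes, 7 were lower and 1 was higher, with a median of -0.71 (-1.07 at a pseudocount of 0.1). The water and glycerol channel AQP3 was at 654, 625 and 584 TPM in Control and 79.6 TPM in A8ko, a difference of -2.95. CALB1, a calcium-binding protein, was at 23.6, 27.6 and 27.5 TPM in Control and 0.0378 TPM in A8ko, a difference of -4.71. The chloride channel ANO1 was at 42.5 to 43.9 TPM in Control and 9.68 TPM in A8ko, a difference of -2.05. The zinc transporter SLC39A2 had a difference of -2.85, and the potassium channel KCNN4 was the higher member at 1.33. Among enzymes outside the lists, ATP6V1B1, a subunit of the proton pump V-ATPase, was at 10.0, 8.25 and 9.79 TPM in Control and listed at 0 in A8ko. MAOA, which oxidises monoamines, was at 8.41, 7.49 and 8.41 TPM and listed at 0. PRODH, which oxidises proline, was at 9.31, 9.75 and 11.5 TPM in Control and 0.203 TPM in A8ko. PTN, the heparin-binding growth factor pleiotrophin, was at 12.2, 10.5 and 10.2 TPM in Control and listed at 0 in A8ko.

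Noncoding and imprinted genes lay on both sides, with 1 of 16 listed members higher and 2 lower. H19, an imprinted long noncoding RNA expressed from the maternal allele, was at 21.4, 19.5 and 19.2 TPM in Control and 0.819 TPM in A8ko, a difference of -3.53. SNRPN, imprinted and expressed from the paternal allele, was at 6.17, 6.15 and 6.40 TPM in Control and listed at 0 in A8ko. SNRPN lies on chromosome 15, which is described as a whole below. SNHG14, which overlaps SNRPN on the same strand, was at a mean of 1.75 TPM in Control and listed at 0 in A8ko. UCA1 was at 73.5, 71.1 and 63.0 TPM in Control and 270.2 TPM in A8ko, a difference of 1.95. The rule also named FAM222A-AS1, at 0.465, 0.641 and 0.793 TPM in Control and 17.2 in A8ko, and LINC02454, at 1.42, 1.74 and 0.789 TPM in Control and 11.6 in A8ko. AGAP2-AS1 was listed at 0 in 2 Control libraries and stood at 11.9 TPM in Control 3 and 15.9 in A8ko, so the Control libraries differ among themselves by more than A8ko differs from their mean on the log2 scale. C15orf48 was at 2.77, 2.26 and 2.76 TPM in Control and 23.5 TPM in A8ko, a difference of 2.77.

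Several lists held no counted gene. None was counted among 22 YAP and contractile genes (median 0.30), 25 cholesterol genes (0.33), 31 ER stress genes (0.17), 40 cytosolic ribosomal protein genes (-0.09), 13 mitochondrially encoded mRNAs (-0.24), 40 nuclear respiratory chain genes and 24 HOX genes. With 4.73% of all compared genes counted, few would be counted in lists of this size. Of the YAP and contractile genes, 18 lay above all Control libraries and 3 below all of them. For the cholesterol genes these numbers were 22 and 2. Among all compared genes 46.9% lay above and 26.4% below. Of 21 checkpoint and immune surface genes, IDO1 and VTCN1 were lower and TNFRSF9 was higher. Of 19 genes recurrently amplified in head and neck carcinoma, ANO1 and SOX2 were lower and none was higher. With 2.05% of all compared genes higher and 2.68% lower, such small counts are not read as results about these lists. The median differences of the interleukin-1, Notch and Wnt, fatty acid, metallothionein, nuclear respiratory chain, HOX, imprinted and amplicon lists were within 0.1 of 0, and their sign depended on the scaling, the filter or the Control libraries used, so no direction is given for them. Scaling by the median of ratios also brought the medians of the tight junction, AP-1, p53, EGFR and ER stress lists to 0.007, 0.003, 0.02, 0.08 and 0.09, and that of the ribosomal protein genes to -0.20.

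The counted genes were also placed along the chromosomes. Runs of 15 neighbouring compared genes whose median lay at least 0.5 log2 units from the median of all genes were joined into stretches. There were 20 stretches, 17 lower and 3 higher, with 429 compared genes, of which 55 were counted as lower and 11 as higher. Among all compared genes 2.68% were lower and 2.05% higher. Stretches were chosen by the same differences that define counted genes. An excess of counted genes in the direction of a stretch, here and in each cluster below, therefore follows from that choice. Each Control library held against the other 2 gave 0 stretches. Several stretches cover clusters of related genes together with other genes nearby. The stretch over the type II keratin cluster (chromosome 12, 52407580 to 53232980) held 18 compared genes. Of these, 8 were lower, IGFBP6 among them, and KRT18 was higher. The stretch over the type I keratin cluster (chromosome 17, 40443461 to 41977731) held 28, of which 8 were lower, HAP1 and MIR6510 among them. The stretch over the kallikrein cluster (chromosome 19, 49928702 to 52095738) held 30, of which 8 were lower, MYH14 among them. The stretch in the epidermal differentiation complex (chromosome 1, 151763384 to 153535115) held 22, of which 6 were lower and SPRR3 was higher. On the tip of the short arm of chromosome 11, the stretch from 837356 to 2992377 held H19, TNNT3, TNNI2, LSP1, SYT8 and IFITM10 among 7 lower genes of 24. In the neighbouring stretch from 167784 to 612222 no gene was counted, and IFITM3 was at 1914 to 2089 TPM in Control and 1306 TPM in A8ko. A higher stretch on chromosome 2 (9936360 to 15561330) held KLF11, HPCAL1 and ATP6V1C2 among 18 genes, and HPCAL1 was at 30.5, 26.7 and 31.4 TPM in Control and 114 in A8ko.

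Chromosome 15 stood apart as a whole. Its 511 compared genes had a median difference of -0.27, against 0.10 for the 15155 positioned genes on the other chromosomes. Of the 511, 350 lay below all 3 Control libraries (68.5%) and 65 above all of them (12.7%), whereas on the other chromosomes 24.7% lay below and 49.1% above. The medians of the Control libraries, each against the other 2, were between -0.06 and 0.04 on this chromosome. Relative to the median of all compared genes the chromosome was at -0.36 in A8ko, and at 0.03 in A2ko and -0.04 and -0.03 in the C9ko libraries.

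The shift was present in each of 4 blocks along the chromosome, but not in every stretch of it. In these blocks of 127 or 128 neighbouring genes, the medians relative to all genes were -0.31, -0.41, -0.35 and -0.38. Of 497 windows of 15 neighbouring genes, 476 had a median difference below 0 and 21 above 0. Relative to the median of all genes, the windows ran from -0.67 to 0.003, and those of the Control libraries, each against the other 2, from -0.14 to 0.14. On that scale 444 windows lay under the lowest Control window and 53 did not. Few genes differed by 1 log2 unit: 20 of the 511 were counted as lower and 4 as higher. Of the 15155 positioned genes on the other chromosomes, 391 were lower and 321 higher. Over all compared genes the shares were 2.68% lower and 2.05% higher. GCNT3, a mucin glycosyltransferase, was at 9.31, 11.9 and 9.42 TPM in Control and 0.434 TPM in A8ko, and CYP1A1, a target of the aryl hydrocarbon receptor, at 19.02, 20.7 and 20.9 and 4.68. The 6 lower stretches on the chromosome were chosen for their low medians, and of the 18 most highly expressed genes in them, 16 lay below all Control libraries and 2 within the Control range. COX5A of the respiratory chain was at 260.5 to 294 TPM in Control and 228 in A8ko, while PDIA3, a chaperone of the endoplasmic reticulum, was at 201.3 to 227.3 and 216. C15orf48 and SEMA7A were higher than in Control against this shift, with SEMA7A at 2.05 to 2.57 TPM in Control and 6.35 in A8ko. No value here shows the number of copies of the chromosome, and what sets the shift was not tested.

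**Figure D4:**
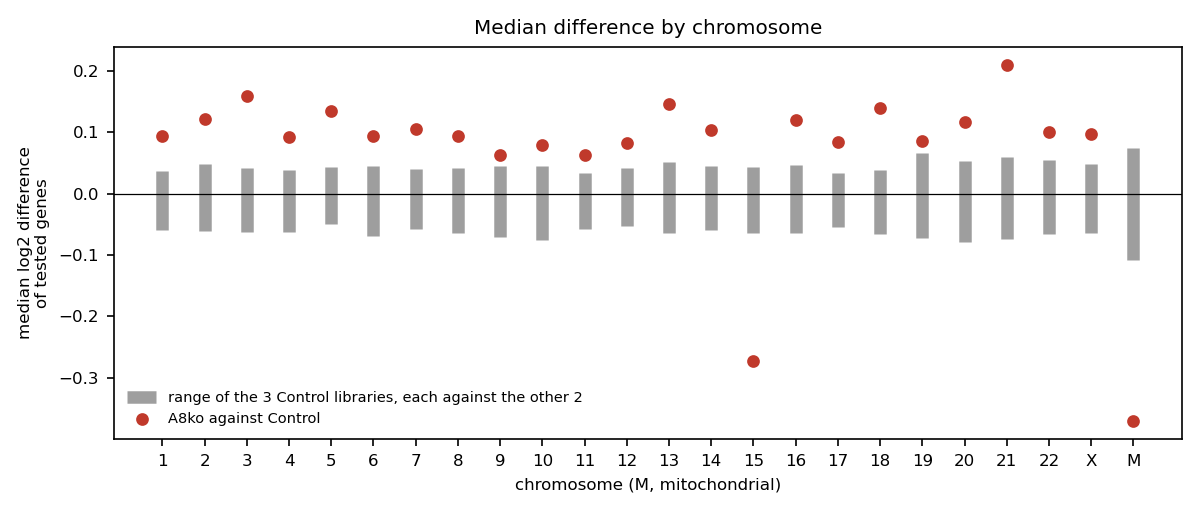
The median log2 difference of the compared genes of each chromosome is drawn for A8ko (red) with the range of the 3 Control libraries, each against the other 2 (grey). Chromosome 15, at -0.27, and the mitochondrial genome, at -0.37, lie below 0, and the other chromosomes lie between 0.06 and 0.21.

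**Figure D5:**
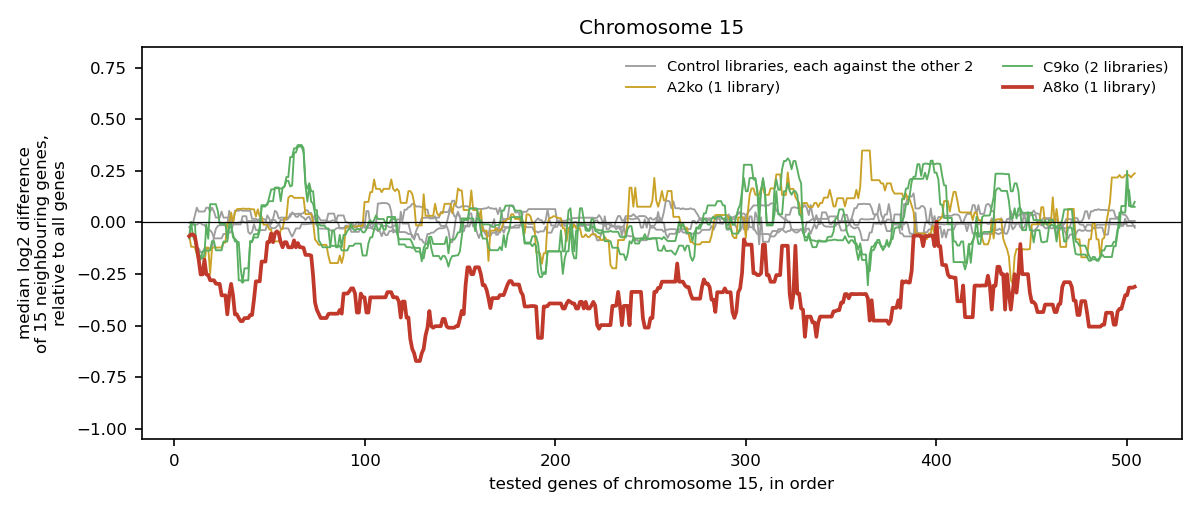
Medians over windows of 15 neighbouring compared genes on chromosome 15, relative to the median of all compared genes, are drawn in gene order for A8ko (red), for each Control library against the other 2 (grey), and for A2ko and C9ko. The A8ko line runs from -0.67 to 0.003 and lies under the lowest Control window in 444 of 497 windows.

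The mitochondrial genome had the lowest median, -0.37 over 37 genes, and 32 of them lay below all Control libraries with none above. Relative to all compared genes the value was -0.46 in A8ko, -0.13 in A2ko and -0.78 and -0.87 in the C9ko libraries. The Control libraries differed among themselves in their mitochondrial share, from 23.1% to 26.9%.

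The other knockouts were compared with the same 3 Control libraries, so their values are only set beside those of A8ko. CSF2 was at 0.740 TPM in A2ko and 17.6 and 18.3 TPM in C9ko, and IL6 was at 17.6 TPM in A2ko and 109.7 and 121 TPM in C9ko. CCND2 was at 0.111 TPM in A2ko and 19.8 and 22.1 TPM in C9ko. In these 3 genes the C9ko values lay far above every Control library and the A2ko values lay nearer to Control. KRT4 was at 37.7 TPM in A2ko and 1.37 and 0.857 TPM in C9ko, and KRT13 was at 83.1 and at 1.68 and 2.50. OLFM4 was at 64.8 TPM in A2ko, above every Control library, and 4.21 and 4.53 in C9ko, below them. MMP13 was at 603 TPM in A2ko and 8.54 and 8.30 in C9ko.

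Motif matches were counted in the promoter windows of all genes with a RefSeq entry. Shares are of windows, and a gene can have several windows. TGANTCA was present in 36 of 271 windows of higher genes (13.3%) and 33 of 377 windows of lower genes (8.75%). It was present in 4.73% of the 15726 windows of compared genes and 6.57% of all 35116 windows. GGNNNTTCC, on either strand, was present in 58 of 271 windows of higher genes (21.4%) and 74 of 377 of lower genes (19.6%). It was present in 19.7% of the windows of compared genes and 17.1% of all windows. A match is a description of letters in these 250 bases and shows no binding.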

How the data were processed

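The deposited values are TPM per Ensembl gene identifier, computed by the authors for each sample. The submitters' processing notes name hg38, and the aligner, quantification tool, annotation and use of strand are not given in the sources used here. TPM keeps no depth, so no counting interval is given. The members and the gene lists were chosen with earlier results of these data known. Symbols came from a table of identifiers, in which 14374 of the 17100 compared identifiers had a symbol, and positions from the GRCh38 annotation of GENCODE 29, which held 15666. Identical files were counted as 1 library. Of 1056 genes in 41 lists written from general knowledge, 1052 were in the files and 916 were compared. The named genes were the 15 largest differences per direction among counted genes with a symbol that reached 5 TPM in A8ko or in the Control mean, the counted list members with up to 4 further members per list, and in a stretch the counted and highest expressed genes. Genes of the text outside these rules were chosen after their values were seen. Calculations used Python 3.11.15, pandas 2.3.3 and numpy 2.4.6, and the counting was tested on simulated data. Alternatives were pseudocounts of 0.1 and 5, other filters and scalings, and leaving out each Control library.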

Additional observations from a re-analysis of the deposited data

Results flagged for a closer look

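For some genes and lists the A8ko library lay on the opposite side of the same 3 Control libraries from another knockout. No test was made of these contrasts between knockouts, because A8ko and A2ko have 1 distinct library each. LOXL4 had a log2 difference from Control of -3.49 in A8ko (1.35 TPM) and 2.58 in A2ko (156 TPM). ATP6V1B1 was listed at 0 in A8ko, which is -3.37 on the log2(TPM + 1) scale and depends on the pseudocount, and stood at 22.2 TPM in A2ko, a difference of 1.17. SERPINA3 had a difference of -3.16 in A8ko (0.00177 TPM) and 1.67 in A2ko (27.4 TPM). CXCL11 had a difference of 2.45 in A8ko (43.4 TPM) and -1.10 in A2ko (2.78 TPM). For each of these genes both C9ko libraries lay on the same side of Control as A8ko. In C9ko, LOXL4 was at 4.62 and 5.41 TPM and ATP6V1B1 at 0.170 and 0.221 TPM. SERPINA3 was at 3.49 and 4.13 TPM there, and CXCL11 at 51.6 and 55.7 TPM. The median of the interferon-stimulated genes, relative to the median of all compared genes, was -0.59 in A8ko, 0.26 in A2ko and 0.38 in C9ko. The median of the DNA replication and G1/S genes, relative to all compared genes, was 0.26 in A8ko and -0.29 in A2ko. The check for a single sample far from its group needs at least 4 samples and was not made.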

How the results depend on the processing

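The count of 809 genes moved most with the pseudocount: 0.1 gave 1689 (735 higher, 954 lower) and 5 gave 269 (130 higher, 139 lower), a change that follows from how a pseudocount weighs low values. A minimum mean of 5 TPM, which compares fewer genes, gave 496, with 239 lower. No filter, scaling by the median of ratios and TPM without mitochondrially encoded genes gave 834, 830 and 968. Scaling gave 284 higher and 546 lower genes, so that 34.2% of counted genes were higher in place of 43.3%, and 743 counted genes were shared. It moved the median of all genes from 0.09 to 0.003. Leaving out each Control library gave 843 to 870 genes. No sign of a named gene reversed, and 29 of the 30 named genes were counted under all 9 alternatives; STEAP1B was not at a pseudocount of 5. Of 41 list medians, many of them near 0, 18 changed by over 1.5 times with scaling, 15 (of 40) without mitochondrially encoded genes, 13 at a pseudocount of 5, 12 with the minimum mean of 5 TPM, 6 to 8 without a Control library and 4 at a pseudocount of 0.1. Of the 30 named differences, 19 changed that much at a pseudocount of 5, 9 at 0.1 and 0 under the other settings. No paired analysis was possible because the 2 A8ko files are identical, which leaves 1 library without a partner for each replicate number. Depth is unknown and limits how far genes listed at 0 can be read.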
